A study of Mus musculus with 10 samples.

Results

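The report concerns 10 genes that are read as marks or drivers of the transition between epithelial and mesenchymal states: the cadherins Cdh1, Cdh2 and Cdh11, the epithelial adhesion gene Epcam, the intermediate filament gene Vim, and the transcription factor genes Zeb1, Zeb2, Snai1, Snai2 and Twist1. They were named as a family for their known roles and not for measured values, and all 10 of the 10 were measured among 19938 genes on the arrays. Where a gene had several probe sets annotated to it alone, the one with the highest mean signal stood for it, and each of the 10 had exactly 1.

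Gene expression was measured in lenses of mouse embryos at E13.5, in days of gestation. DicerCN embryos had the genotype Le-Cre+/-;DicerloxP/loxP, and control embryos had the genotype Le-Cre-/-;DicerloxP/loxP. All embryos thus carried 2 loxP-flanked Dicer alleles, and the controls, titled wild type in part of the labels, lacked the Cre transgene. No group carried the transgene with intact Dicer alleles. In Le-Cre mice a Pax6 P0 promoter drives the recombinase in the surface ectoderm from which the lens and the epithelium of the cornea arise, so other tissues caught in a dissection keep Dicer. There were 5 DicerCN and 5 control arrays, each made from the pooled lens pair of 1 embryo. The comparison asks which transcripts differ in a lens that lacks Dicer, the ribonuclease that releases mature microRNAs from their precursors.

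E-cadherin, the product of Cdh1, binds like molecules on neighbouring cells and ties epithelial cells together through catenins. Zeb, Snail and Twist family factors can repress Cdh1, the Zeb and Snail proteins by binding E-box sequences in its promoter, and microRNAs of the miR-200 family in turn repress Zeb1 and Zeb2 messages. In the vertebrate lens, E-cadherin marks the anterior epithelium and is lost as cells become fibres, while N-cadherin, the product of Cdh2, is kept in fibres, and lens cells of both kinds contain vimentin.

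The mature miR-200 family members are shown because they are Dicer products known to repress Zeb1 and Zeb2 messages. They are RefSeq sequences of GRCm38.p6, written 5′ to 3′ with the seed, bases 2 to 8, in capitals.
mmu-miR-141-3p: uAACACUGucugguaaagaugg
mmu-miR-200a-3p: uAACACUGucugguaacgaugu
mmu-miR-200b-3p: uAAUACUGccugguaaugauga
mmu-miR-200c-3p: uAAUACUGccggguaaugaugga
mmu-miR-429-3p: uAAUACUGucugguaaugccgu
The first 2 share the seed AACACUG and the other 3 share AAUACUG. The arrays hold no measurement of these mature forms. Probe sets for 4 precursor genes were present, and the changes of Mir200a, Mir200b, Mir200c and Mir141 were 0.17, 0.088, 0.056 and 0.017 on the log2 scale (limma adjusted p = 0.608, 0.757, 0.745 and 0.956).

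E-box cores of the kind bound by Zeb and Snail factors were searched as CACCTG and its reverse complement CAGGTG in RefSeq promoter windows of 300 bases, from 250 before to 50 after a gene's start. Windows of 5 of the 10 genes were searched: Epcam, Vim, Zeb2, Snai1 and Twist1. Those of Cdh2 and Zeb1 were left out of the search, and Cdh1, Cdh11 and Snai2 had no window. Epcam had 2 matches, Snai1 had 1, and the windows of Vim, Twist1 and Zeb2 had 0. Among all 32851 windows, 20.2% had at least 1 match and 2.88% had at least 2. The Epcam window is shown because Epcam had the smallest p after Cdh1 among the 10 genes. It lies at chr17:87635729-87636028 on the plus strand of GRCm38.p6 and has its matches, in capitals, beginning at positions −187 and −19 from the start.
Epcam: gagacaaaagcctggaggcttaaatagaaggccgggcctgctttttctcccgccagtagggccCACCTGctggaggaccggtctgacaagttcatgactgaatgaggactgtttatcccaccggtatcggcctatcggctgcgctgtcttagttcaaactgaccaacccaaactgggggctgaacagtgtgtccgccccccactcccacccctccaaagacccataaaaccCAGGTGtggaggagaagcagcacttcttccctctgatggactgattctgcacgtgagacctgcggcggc
A match of letters is a description of the sequence and not a site of binding.

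Signals are given on the log2 scale as deposited, and changes are DicerCN minus control on that scale with the limma standard error (SE). Signals of different probe sets are not compared as amounts of RNA. In bulk lens RNA, fewer cells of a type and less RNA per cell cannot be told apart. Some arrays stood apart in markers of tissue around the lens, in scores that are the mean over a marker list of the signal minus the control mean. DicerCN replicate 3 and control replicate 4 had the highest periocular mesenchyme scores (1.06 and 0.906), DicerCN replicates 5 and 4 the highest neural retina scores (1.86 and 0.852), and control replicate 4 the highest striated muscle score (2.51). Pigment cell scores were 0.958, −0.125, 0.077, 1.63 and 1.08 in DicerCN replicates 1 to 5 and at most 0.214 in control lenses (exact permutation p = 0.103), with 0 of the 7 markers passing the test. Of the 8 lens epithelium markers, all had control means above the median signal of the probe sets, with Foxe3 at 11.73 and Pax6 at 11.02, and so had all 14 measured fibre markers. In DicerCN lenses the same held except for Birc7, a fibre marker at 6.32 against the median signal of 6.54, and the fibre crystallin Crygs averaged 7.83 in DicerCN and 11.18 in control lenses. Dicer1 itself differed by 0.13 (limma adjusted p = 0.472), and since the flanked exons are not stated, its probe set does not check the genotype.

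E-cadherin RNA fell in DicerCN lenses, and it was the only 1 of the 10 genes that passed the test. Cdh1 had log2 signals of 9.82, 9.78, 9.68, 9.04 and 9.50 in DicerCN replicates 1 to 5, against 10.58, 10.37, 10.35, 10.04 and 10.44 in control replicates 1 to 5. All DicerCN values lay below all control values, and the gap between the groups was set by DicerCN replicate 1 and control replicate 4. The means were 9.56 ± 0.32 in DicerCN and 10.35 ± 0.20 in control lenses (SD, n = 5 each), a 1.73-fold fall (fell by 0.79, SE 0.15, 95% confidence interval −1.11 to −0.47, limma adjusted p = 0.00665). By the exact 2-sided permutation test p was 0.00794, the smallest that 5 against 5 arrays can give.

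Read against the background, 1 of 10 genes passed where 6.54% of all 19938 genes did (1303 genes). That 1 was lower in DicerCN lenses, as were 3.97% of all genes, while 0 of 10 were higher, against 2.56% of all genes. The groups did not overlap in 1 of 10 genes, against 7.38% of all genes. The count of members is therefore near the background, and the median change of the 10 was 0.072 against −0.0014 for all genes. Within the genes that fell, Cdh1 stood among the steeper ones: 90 of 792 fell at least as far, and the median size of all called changes was 0.48.

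**Figure D1:**
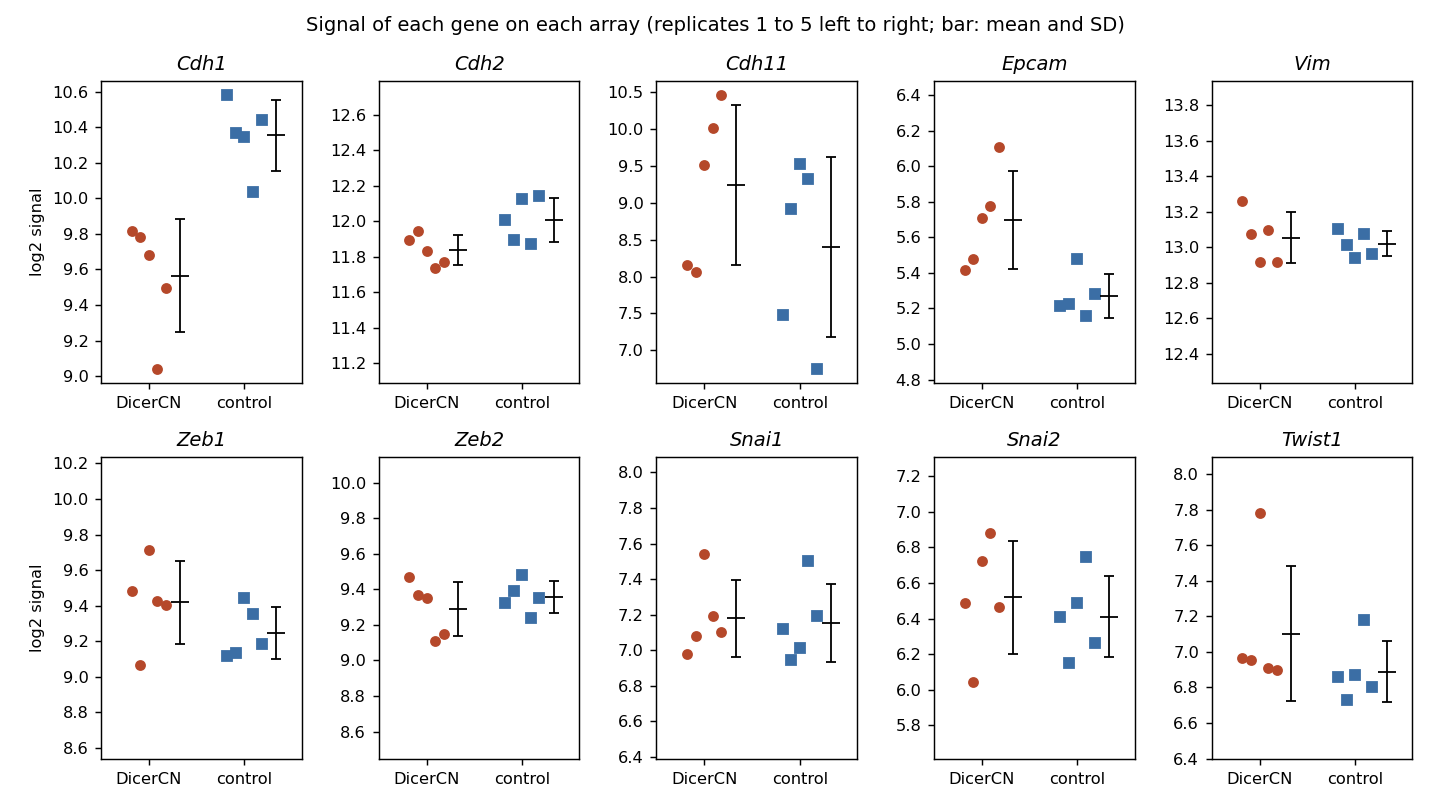
Log2 signal (vertical axes) of the 10 genes on each DicerCN array (left, circles) and each control array (right, squares), with the mean and SD of each group as a bar beside the points. Every panel spans at least 1.7 log2 units. The groups are apart without overlap for Cdh1 alone, and Cdh11 has the widest spread.

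The fall of Cdh1 kept its call when any single array was left out, with changes between −0.87 and −0.66 (limma adjusted p between 0.00441 and 0.0228). Without DicerCN replicates 4 and 5, the arrays lowest in Cdh1 and highest in retina and pigment markers, the change was −0.59 (adjusted p = 0.0189), and without control replicate 4 and DicerCN replicate 3, highest in mesenchyme markers, it was −0.90 (adjusted p = 0.00796). Markers of macrophages moved with the groups: Cx3cr1 and Csf1r, receptors of these cells, rose by 0.73 and 0.86 (limma adjusted p = 0.0107 and 0.0111) as 2 of 14 markers, 0 fell, and the score of the list ran from 0.17 to 0.96 in DicerCN and from −0.29 to 0.34 in control lenses (exact permutation p = 0.0238). Adding that score to the fit as a covariate left Cdh1 at −0.68 without a call (limma adjusted p = 0.185). Markers of the lens epithelium, the layer in which E-cadherin is found, did not move as a list, with a score from −0.29 to 0.19 in DicerCN and from −0.12 to 0.09 in control lenses (exact permutation p = 0.683). In DicerCN replicates 1 to 5 that score was −0.033, 0.093, 0.191, −0.292 and −0.147. It was thus lowest on replicates 4 and 5, the arrays lowest in Cdh1. Fibre cell markers were lower, with 4 of 14 falling and 0 rising, and their score ran from −0.87 to −0.28 in DicerCN and from −0.11 to 0.06 in control lenses (exact permutation p = 0.00794). No fit held the lens epithelium, fibre or pigment score, and their part in the change of Cdh1 was not tested. Among the 8 epithelium markers 1 fell and 0 rose: Foxe3, a factor of the lens epithelium, stood at −0.043 and Pax6, the master regulator of eye formation, at 0.17, while Pdgfra, a receptor for platelet-derived growth factor, fell by 0.58 (limma adjusted p = 0.0423).

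**Figure D2:**
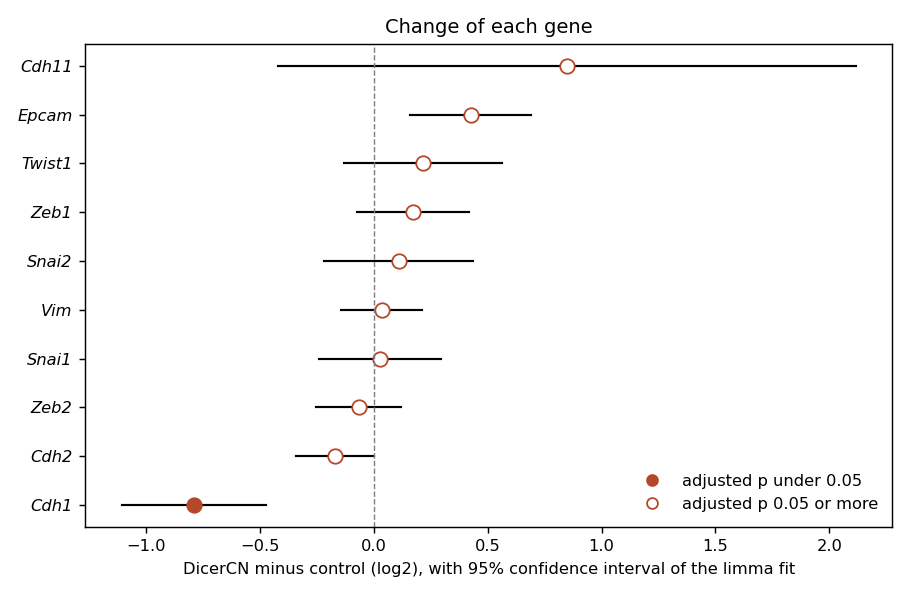
Change of each gene, DicerCN minus control on the log2 scale (horizontal axis), with the 95% confidence interval of the limma fit and genes ordered by change. The filled point, Cdh1 at −0.79, has an adjusted p under 0.05, and the intervals of all others except Epcam cross 0.

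N-cadherin, which stays in lens cells as they become fibres, was close to level. Cdh2 had signals of 11.89, 11.94, 11.84, 11.74 and 11.77 in DicerCN replicates 1 to 5 and of 12.00, 11.89, 12.12, 11.87 and 12.14 in control replicates 1 to 5. The DicerCN arrays lay in the lower part of the range, with 3 of 5 below the lowest control. The change was −0.17 (95% confidence interval −0.34 to 0.0023, SE 0.08, limma adjusted p = 0.276, unadjusted exact permutation p = 0.0476), so it did not pass across all genes. A fall beyond 0.34 or a rise beyond 0.0023 lies outside that interval.

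Cdh11, a type II cadherin found mainly in mesenchyme, varied widely among embryos of both groups. Its signals were 8.15, 8.06, 9.51, 10.02 and 10.47 in DicerCN replicates 1 to 5 and 7.48, 8.91, 9.53, 9.32 and 6.74 in control replicates 1 to 5. The highest and lowest arrays were 13.3-fold apart, and the SD of 1.09 in DicerCN and 1.22 in control lenses each exceeded that of 99.8% of genes. The change of 0.85 (SE 0.59, 95% confidence interval −0.42 to 2.12) did not pass the test (limma adjusted p = 0.506). DicerCN replicates 5 and 4 were highest in Cdh11 and in retina markers, with mesenchyme scores of −0.222 and 0.467. Retina scores of control replicates 1 to 5 were −0.036, 0.432, 0.161, −0.241 and −0.316. The part of these tissues in the spread of Cdh11 was not tested. Without control replicate 5, the lowest array, the change was 0.43, and without DicerCN replicate 5 it was 0.54. Without DicerCN replicates 4 and 5 the change was 0.18, and adjusted for the retina or the macrophage score it was 0.15 or 0.11. The platform also lists 3 probe sets that Cdh11 shares with other symbols. They ran between 10.16 and 11.47 with changes of 0.088 to 0.11, and they were not used.

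Epcam, an adhesion protein of many epithelia, averaged higher in DicerCN lenses without passing the test. Its signals were 5.42, 5.48, 5.71, 5.77 and 6.11 in DicerCN replicates 1 to 5 and 5.22, 5.22, 5.48, 5.16 and 5.28 in control replicates 1 to 5. The groups overlapped at the top of the control range, and 3 of 5 DicerCN arrays lay above the highest control. The change was 0.43 (SE 0.12, 95% confidence interval 0.16 to 0.69, limma adjusted p = 0.0599, unadjusted exact permutation p = 0.0238). The signal was dim, since 31.0% of probe sets had lower means. The call appeared when DicerCN replicate 1 or 2 was left out (adjusted p = 0.0300 and 0.0490), and without DicerCN replicate 5 the change was 0.32 (adjusted p = 0.0872). DicerCN replicates 4 and 5 also led in neural retina markers, and adjusted for that score the change was 0.26 (adjusted p = 0.175). Of 10 surface ectoderm and corneal markers, where Epcam could also be made, 0 rose and 0 fell, and their score ran from −0.10 to 0.08 in DicerCN and from −0.09 to 0.04 in control lenses.

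Vim, the gene of vimentin, an intermediate filament protein of lens and of mesenchyme, had the narrowest range over all arrays of the 10 genes, 0.35. Its signals were 13.26, 13.08, 12.91, 13.10 and 12.92 in DicerCN replicates 1 to 5 and 13.10, 13.01, 12.94, 13.08 and 12.96 in control replicates 1 to 5. The groups overlapped, with DicerCN replicate 1 the highest and DicerCN replicates 3 and 5 the lowest, and the change was 0.035 (SE 0.08, 95% confidence interval −0.14 to 0.21, limma adjusted p = 0.888). Signals of this gene lay near the top of the array, with 99.6% of probe sets below.

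Zeb1 and Zeb2 encode zinc finger and homeodomain repressors of Cdh1 and are classical targets of the miR-200 family shown above. Zeb1 had signals of 9.48, 9.06, 9.71, 9.43 and 9.40 in DicerCN replicates 1 to 5, against 9.11, 9.13, 9.44, 9.35 and 9.18 in control replicates 1 to 5. The groups overlapped, DicerCN replicate 2 being the lowest of all arrays and DicerCN replicate 3 the highest, and the change was 0.17 (95% confidence interval −0.08 to 0.42, limma adjusted p = 0.486). It was 0.098 without DicerCN replicate 3 and 0.26 without DicerCN replicate 2. Zeb2 had signals of 9.47, 9.37, 9.35, 9.11 and 9.15 in DicerCN replicates 1 to 5, against 9.32, 9.39, 9.48, 9.24 and 9.35 in control replicates 1 to 5. DicerCN replicates 4 and 5 were the lowest arrays, the others overlapped, and the change was −0.067 (95% confidence interval −0.25 to 0.12, limma adjusted p = 0.761). Rises beyond 0.42 for Zeb1 and 0.12 for Zeb2 lie outside these intervals.

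Snai1 and Snai2 encode the zinc finger repressors Snail and Slug. Neither passed the test. Snai1 ran from 6.98 to 7.54 in DicerCN and from 6.94 to 7.503 in control lenses, a change of 0.025 (95% confidence interval −0.24 to 0.29, limma adjusted p = 0.951). Snai2 ran from 6.04 to 6.88 in DicerCN and from 6.15 to 6.75 in control lenses, a change of 0.11 (95% confidence interval −0.22 to 0.44, limma adjusted p = 0.786). With single arrays left out the change of Snai2 ran from 0.019 without DicerCN replicate 4 to 0.23 without DicerCN replicate 2. In each group of Snai1 the highest array was the one with the highest mesenchyme score, DicerCN replicate 3 and control replicate 4. Both signals were in the middle of the array, with 48.7% of probe sets below Snai2 and 59.9% below Snai1.

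Twist1, a basic helix-loop-helix factor of cranial mesenchyme, was set apart by 1 array. Its signals were 6.97, 6.95, 7.78, 6.91 and 6.90 in DicerCN replicates 1 to 5 and 6.86, 6.73, 6.87, 7.18 and 6.80 in control replicates 1 to 5. DicerCN replicate 3 and control replicate 4, the arrays highest in periocular mesenchyme markers, were also the highest here. The change was 0.21 (SE 0.16, 95% confidence interval −0.13 to 0.56, limma adjusted p = 0.542), and without DicerCN replicate 3 it was 0.046 (adjusted p = 0.866). Adjusted for the periocular mesenchyme score it was 0.041 (adjusted p = 0.920).

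The changes of members were then set against each other in 6 pairs, each by an exact 2-sided permutation test of the difference between both genes on each array, adjusted over the 6 pairs. The change of Cdh1 minus that of Cdh2 was −0.62 on the log2 scale (adjusted p = 0.0159), and the groups did not overlap. The change of Cdh1 minus that of Epcam was −1.22 and that of Vim minus that of Cdh1 was 0.82 (adjusted p = 0.0159 for each), again without overlap. Cdh11 and Cdh2 (1.02, adjusted p = 0.267), Zeb1 and Zeb2 (0.24, adjusted p = 0.191) and Snai1 and Snai2 (−0.083, adjusted p = 0.579) did not differ beyond their spread. The first 3 rest on the smallest p that 5 against 5 arrays allow, and Cdh1 was already known to have fallen when the pairs were chosen.

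The genes whose signals followed Cdh1 most closely over the 10 arrays were Gabrg3, a subunit of a receptor for gamma-aminobutyric acid, Lrrc51, the noncoding transcript Sox1ot that overlaps the lens fibre gene Sox1, Dbnl, an actin-binding protein, and Nrxn3, a neurexin. Pearson correlations were 0.979, 0.973, 0.972, 0.966 and 0.964, and after removal of the group means they were 0.918, 0.894, 0.948, 0.868 and 0.859. All of these genes were lower in DicerCN lenses, by 1.21, 0.59, 0.97, 0.57 and 0.69 (limma adjusted p = 0.00254, 0.00587, 0.000459, 0.00920 and 0.00276). With the macrophage score in the fit, Sox1ot kept its call (adjusted p = 0.0357), while Gabrg3, Lrrc51, Dbnl and Nrxn3 lost it (0.0664, 0.213, 0.205 and 0.104). Changes in that fit were −0.89 for Sox1ot and −1.25, −0.45, −0.50 and −0.63 for Gabrg3, Lrrc51, Dbnl and Nrxn3. The 5 genes were picked for likeness to Cdh1 among 19938 genes, so these values are a description. The same measure for Cdh11, added after its spread was seen, gave Plagl1, Zic1, Mab21l2, Bend5 and Fbn2, with correlations of 0.961 to 0.980. Mab21l2 and Zic1 are genes of early eye and neural development.

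Other genes of the pathway were taken from 6 lists of general knowledge. Counting each gene once and leaving out the members, 132 genes were measured, of which 7 rose and 5 fell, 9.09% in all against 6.54% of all genes. Their median change was 0.086. All 12 lost their call once the macrophage score entered the fit (limma adjusted p between 0.107 and 0.515), and 6 of them kept it whichever array was left out. Over all genes 206 passed in that fit, against 1303 without the score. All 12 kept the sign of their change. Those of Lsr and Prrx2 grew, to 0.40 and 0.60. The others shrank, least for Skil (0.71 against 0.73) and most for Tagln (0.41 against 0.94). The score itself differed between the groups, and the part of macrophages in the calls of the 12 was not tested further.

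No epithelial gene of the list, which leaves out Cdh1 and Epcam, passed as lower. Of 34 measured genes of junctions, keratins and epithelial regulators, 1 rose and 0 fell, with a median change of 0.06, and 23 were higher in DicerCN lenses. The score of the list ran from 0.05 to 0.15 in DicerCN and from −0.06 to 0.03 in control lenses, without overlap. Lsr, a lipoprotein receptor that sits at tricellular junctions, rose by 0.30 (limma adjusted p = 0.0346), a call that among single omissions remained only without DicerCN replicate 3, DicerCN replicate 5 or control replicate 5 and was lost in the other 7 (adjusted p between 0.0518 and 0.0896). Cgn, the tight junction protein cingulin, stood at 0.64 (adjusted p = 0.0532) with all DicerCN arrays above all controls, and Cldn1, a claudin, at 1.13 (adjusted p = 0.172). Both genes were highest on DicerCN replicates 5 and 4, the arrays that also led in neural retina markers. Adjusted for the retina score, Cgn stood at 0.36 and Cldn1 at 0.64, without a call. With DicerCN replicates 4 and 5 left out they stood at 0.36 and 0.60, again without a call. The part of retina tissue in these changes was not tested further. The tight junction scaffold Tjp1 stood at 0.0057 and the keratin Krt18 at 0.39 (adjusted p = 0.988 and 0.221). Only 13 of the 34 had control signals above the median of all probe sets, so most were measured dimly.

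Among 16 partners of cadherins at adherens junctions, 0 rose and 1 fell. That was Ctnna2, the neural alpha-catenin, by 0.38 (limma adjusted p = 0.0414), a call that among single omissions remained only without DicerCN replicate 5 and was lost in the other 9 (adjusted p between 0.0501 and 0.112). Arvcf and Ctnnd2, catenins of the p120 family, stood at −0.27 and −0.28 (adjusted p = 0.0698 and 0.0901), and Jup, plakoglobin, stood at 0.37 (adjusted p = 0.220). Of 16 other cadherins, 0 passed in either direction, with a median change of −0.004. The nearest were Cdh12 (0.25), Cdh18 (−0.21), Cdh24 (0.20) and Cdh20 (0.57), at limma adjusted p of 0.201, 0.222, 0.267 and 0.437.

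Of 24 measured genes of the mesenchymal state, 3 rose and 1 fell, and the median change was 0.36 with 20 higher. Fn1, fibronectin, had signals of 11.02, 11.22, 11.52, 11.17 and 11.15 in DicerCN replicates 1 to 5 and of 10.04, 9.88, 10.59, 10.79 and 10.25 in control replicates 1 to 5. All DicerCN arrays lay above all control arrays, a rise of 0.91 (SE 0.16, limma adjusted p = 0.00537). Tnc, the matrix protein tenascin C, rose by 1.32 and Tagln, the actin-binding protein transgelin, by 0.94 (adjusted p = 0.00893 and 0.0103). For Tnc and for Tagln the groups overlapped. DicerCN replicate 5 lay below control replicate 4 in Tnc (6.28 and 6.47) and in Tagln (6.92 and 7.01). The fall was that of Pdgfra, given above, which kept its call only without DicerCN replicate 1, 2 or 4 and lost it in the other 7 omissions (adjusted p between 0.0505 and 0.108). The fibrillar collagen genes Col1a1, Col1a2 and Col3a1 did not pass (0.40, 0.34 and 0.35, adjusted p = 0.790, 0.796 and 0.736). Periocular mesenchyme markers, of which 12 of 13 were measured, had 1 rise and 0 falls, with scores from −0.22 to 1.06 in DicerCN and from −0.40 to 0.91 in control lenses (exact permutation p = 0.286). The score of the mesenchymal state list ran from −0.05 to 0.82 in DicerCN and from −0.27 to 0.80 in control lenses (exact permutation p = 0.151). The lists share Col1a1, Col1a2, Col3a1, Lum, Dcn and Pdgfrb, so their scores are not independent.

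**Figure D3:**
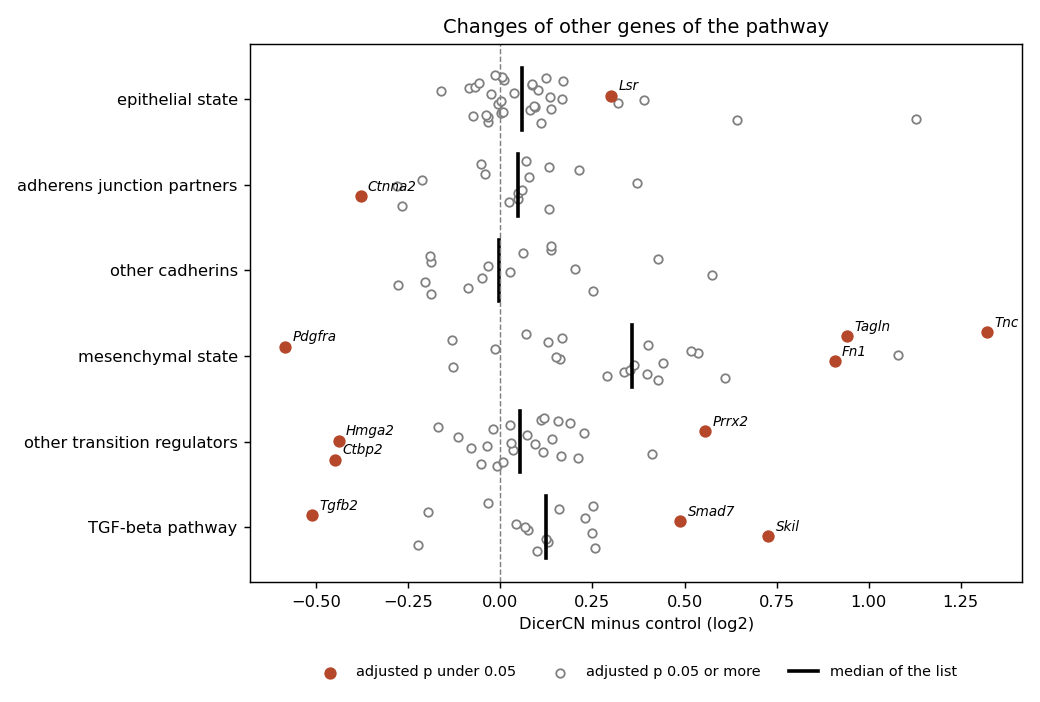
Changes, DicerCN minus control on the log2 scale (horizontal axis), of the measured genes of 6 lists (rows), with 1 point a gene and a black bar at the median of each list. Filled points passed the test and are named. The mesenchymal state list has its median at 0.36, the epithelial state list at 0.06, and the other cadherins at −0.004.

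Of 26 other regulators of the transition, 1 rose and 2 fell. Ctbp2, a corepressor recruited by Zeb proteins, fell by 0.45 (SE 0.09, limma adjusted p = 0.0127) and Hmga2, a chromatin protein and let-7 target that can induce Snail and Twist genes, fell by 0.44 (adjusted p = 0.0293). Prrx2, a homeobox gene of mesenchyme and itself a periocular mesenchyme marker here, rose by 0.56 (adjusted p = 0.0240). Hmga2 lost its call in 6 omissions, those of DicerCN replicates 1, 4 and 5 and control replicates 1, 3 and 5 (adjusted p between 0.0560 and 0.0812). Prrx2 lost it in 5, those of DicerCN replicates 2, 3 and 4 and control replicates 2 and 3 (adjusted p between 0.0502 and 0.0657). Fbxl14, a ubiquitin ligase adaptor for Snail proteins, stood at 0.17 (adjusted p = 0.161).

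Of 17 genes of TGF-beta signalling, the best known inducer of the transition, 2 rose and 1 fell. Tgfb2, a ligand expressed in the lens, had signals of 9.66, 9.77, 9.65, 9.73 and 9.65 in DicerCN replicates 1 to 5 and of 10.26, 9.99, 10.24, 10.14 and 10.38 in control replicates 1 to 5. The groups did not overlap, and the change was −0.51 (SE 0.08, limma adjusted p = 0.00254). Skil and Smad7, feedback inhibitors that are themselves induced by the pathway, rose by 0.73 and 0.49 (adjusted p = 0.00438 and 0.0183). The call of Smad7 was lost without control replicate 1 (0.0527), with control replicate 4 and DicerCN replicate 3 left out (0.0788), with control replicate 4 and DicerCN replicate 5 left out (0.0528) and with DicerCN replicates 4 and 5 left out (0.0650). Bmp7, a ligand of the same superfamily, stood at −0.22 (adjusted p = 0.212).

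**Figure D4:**
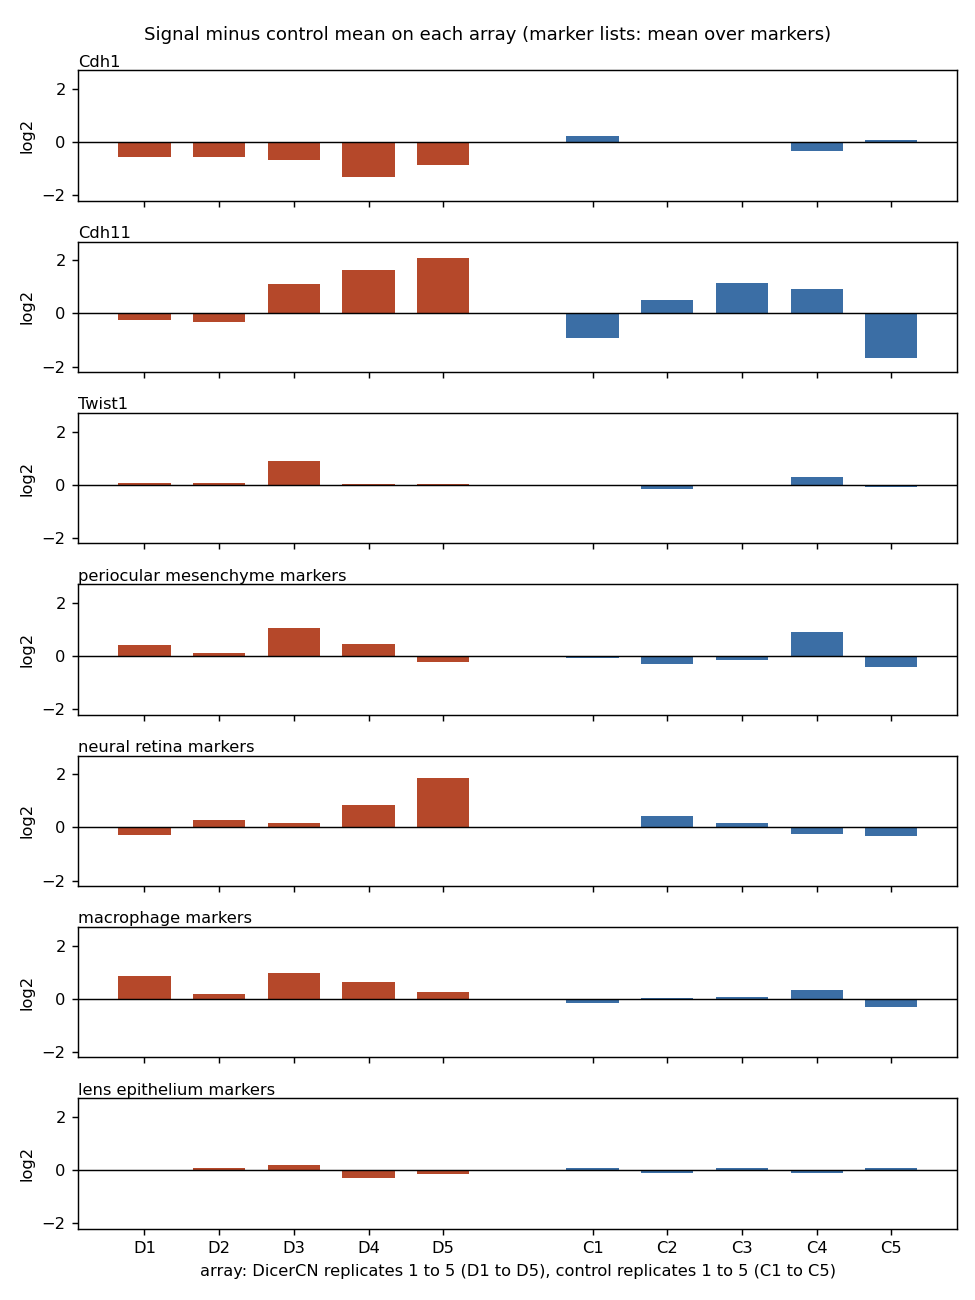
Signal minus the control mean, on the log2 scale (vertical axes), on each of the 5 DicerCN arrays (D1 to D5, left) and the 5 control arrays (C1 to C5, right) for Cdh1, Cdh11 and Twist1 and for the mean of 4 marker lists. Cdh1 is below the control mean on all DicerCN arrays, Twist1 stands out on D3, and Cdh11 varies among arrays of both groups.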

How the data were processed

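Lens RNA (100 ng a sample) was labelled by a whole-transcript sense-strand assay and hybridised to Affymetrix arrays, 1 per embryo, per the labels' protocols. The deposited values are taken as log2 signals (range 1.91 to 15.2, array medians 6.54 to 6.56), and the main fit used them without further scaling. The submitters' processing notes name GCOS. How probe signals were summarised and normalized and the genome build are not stated in the labels or headers. Array correlations ran from 0.977 to 0.990. The number of arrays limits the precision, with a median gene SD of 0.165 in DicerCN and 0.134 in control lenses.

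The platform annotation gave 1 symbol for 21789 of 35557 probe sets, and several or none for the others, which were not tested. The probe set of highest mean was used for each of 19938 genes, with no filter on low signals. The test was that of limma 3.58.1 (lmFit and eBayes, under R 4.3.3), 2-sided, with Benjamini-Hochberg adjustment over all genes and a threshold of 0.05. The fit was tested on simulated data. Exact permutation tests used every arrangement of the 10 arrays into 5 and 5, with a smallest p of 0.00794. The named genes are the 10 members, up to 4 genes per pathway list by smallest p, and the 5 genes most correlated with Cdh1. A few others are given as examples chosen after their values were seen: Mir200a to Mir141, Dicer1, Foxe3, Pax6, Birc7, Crygs, Cx3cr1, Csf1r, Tjp1, the 3 collagens and the genes like Cdh11. The members, lists and tests were chosen with earlier results of these data known. Alternatives covered probe sets, normalization, dim signals, the variance prior, array weights, replicate number as a block, each array left out, and marker scores as covariates. The omission of pairs of arrays was added after seeing the data. For pairs of members, only probe sets, normalization and single arrays were varied.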

Additional observations from a re-analysis of the deposited data

Results flagged for a closer look

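Twist1 on DicerCN replicate 3 was far from the other arrays of its group. Its log2 signal was 7.78 and that of the nearest DicerCN array 6.97, a gap of 0.81 that made up 0.925 of the whole range of the group, above Dixon's critical value of 0.71 for 5 samples. It was the only 1 of 20 gene and group combinations so marked, and chance marks about 1 in 20.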

How the results depend on the processing

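The change of Cdh1 could not move from −0.79 under some of the 24 alternatives. With 1 probe set for Cdh1, both probe set settings repeated the main estimate. The dim-signal filter, the variance prior, the replicate block and the exact permutation test altered only its p, unadjusted in the permutation test. Under the others the change stayed negative, from −0.90 to −0.59. The fall of Cdh1 kept its call under 23 of the 24. The exception was the macrophage score as a covariate, which left it at −0.68 and lost its call, and under which 0 of the 10 genes, 0 of the 12 called pathway genes passed. Over all genes 206 passed in that fit, and 1303 without the score. With the periocular mesenchyme score, 815 genes passed. Changes of members that had no call turned sign with the macrophage score for Snai1 (−0.16), Snai2 (−0.25), Twist1 (−0.14), Vim (−0.011) and Zeb1 (−0.11), as did that of Jup (−0.10). With the mesenchyme score Snai1 (−0.10) and Snai2 (−0.031) turned sign, with the retina score Zeb2 did (0.0014), and so did Zeb2 with DicerCN replicates 4 and 5 left out (0.039). The cause was not tested. Without the dimmest genes (the lowest 25% by mean signal) and with array weights, 2 members passed, since Epcam joined Cdh1 (limma adjusted p = 0.0491 and 0.0249). The call of Cgn appeared under 6 alternatives.

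With 1 array left out at a time, the change of Snai1 ran from −0.065 to 0.11, that of Vim from −0.017 to 0.070, and that of Zeb2 from −0.11 to −0.023. The difference of changes ran from −0.18 to 0.0036 for Snai1 minus Snai2 and from 0.18 to 0.35 for Zeb1 minus Zeb2, which passed at its top, without DicerCN replicate 2 (exact permutation p = 0.0476 after adjustment). The number of members that differed ran from 1 to 2, of pathway genes from 7 (without control replicate 1 or 3) to 12, and of all genes from 784 (without control replicate 1) to 1295, with 865 without control replicate 2.

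Replicate numbers are shared by the groups in the labels but did not pair the arrays: correlations of same-numbered arrays ran from −0.088 to 0.19, and 1 of 5 correlated best with its own number. With replicate number as a block, Cdh1 stayed at −0.79 (limma adjusted p = 0.00262), 1100 genes differed, and the calls of Lsr, Ctnna2, Prrx2 and Hmga2 were not made (0.0991, 0.0911, 0.0682 and 0.0577). The number of arrays limits the precision, and the signal of Epcam was dim.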
